A study of Mus musculus with 9 samples.

Results

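The mitochondrial genome of the mouse holds 37 genes, and their counts were compared here between 3 layers of the piriform cortex. The genes were taken by their symbols, which start with mt-, and comprise 2 ribosomal RNAs (rRNAs), 13 messenger RNAs (mRNAs) and 22 transfer RNAs (tRNAs). They are 37 of 33958 annotated genes in the count files, and each is represented by 1 transcript. The samples came from wild-type C57BL/6 mice, given as 8 weeks old in the labels and with another age in the study's methods. No treatment or introduced allele is named in any group. Tissue was cut from brain sections under the microscope with a laser (laser-capture micro-dissection), layer by layer. The labels name the layers by the letters A, B and C, and no key from these to the anatomical layers I, II and III is given. Each layer has 3 replicates. Nothing states whether the replicates came from separate animals, so p-values measure only the spread between these samples. Total counts ranged from 23104306 to 76471683 per sample.

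Mitochondrial DNA is transcribed as long precursors from both of its strands. In the precursors the tRNAs stand between most of the rRNAs and mRNAs, and the mature RNAs are released where the tRNAs are cut out. The rRNAs build the mitochondrial ribosome. The mRNAs encode core subunits of complexes I, III, IV and V of oxidative phosphorylation, on which neurons depend for most of their energy supply, while the other subunits and the proteins that transcribe and translate mitochondrial genes are encoded in the nucleus. In bulk tissue, fewer cells of a type and less RNA per cell cannot be told apart, and neither can more mitochondria and more RNA per mitochondrion.

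The junctions below show how tightly the most abundant members are packed. They are shown because mt-Tf, mt-Tv and mt-Tl1, the tRNAs for phenylalanine, valine and leucine that border the rRNAs, took most of the tRNA counts. Sequences are those of the GENCODE annotation of GRCm38 (mm10), written 5′ to 3′, all on the plus strand. Capitals mark the tRNA and lower case the 20 bases of the gene on either side.

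mt-Tf, chrM:1-68: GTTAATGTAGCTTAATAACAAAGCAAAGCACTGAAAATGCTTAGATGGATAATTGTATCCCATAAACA
mt-Rnr1 end, mt-Tv and mt-Rnr2 start, chrM:1005-1113: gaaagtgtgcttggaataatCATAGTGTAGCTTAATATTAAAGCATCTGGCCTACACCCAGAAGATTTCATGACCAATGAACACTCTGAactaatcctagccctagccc
mt-Rnr2 end, mt-Tl1 and mt-Nd1 start, chrM:2656-2770: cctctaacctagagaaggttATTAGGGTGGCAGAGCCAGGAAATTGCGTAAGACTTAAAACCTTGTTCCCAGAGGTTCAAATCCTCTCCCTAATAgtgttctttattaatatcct

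Of the 37 genes, 28 had a count in at least 1 sample, 26 had counts in all 9 samples, and 9 were at 0 throughout. The 9 were the mRNAs mt-Co2, mt-Co3, mt-Atp6, mt-Atp8 and mt-Nd4l and the tRNAs mt-Ty, mt-Ts1, mt-Td and mt-Tk. A count of 0 allows a level of up to 3 counts, or 0.0392 to 0.13 counts-per-million (CPM) depending on the sample, and this floor covers counting error only. These genes encode subunits of cytochrome c oxidase (mt-Co2, mt-Co3), ATP synthase (mt-Atp6, mt-Atp8) and complex I (mt-Nd4l).

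Most of the genes at 0 lie together. Of the 11 genes that lie between mt-Co1 and mt-Nd4, at chrM:6873-10166, 8 were at 0 in all samples, and the other three (mt-Tg, mt-Nd3 and mt-Tr) had at most 72 counts in any sample. The annotation of the nuclear genome holds near-identical copies of several genes in and beside this stretch. On chromosome 1, 7 annotated pseudogenes lie on the minus strand within 4663 bases, at chr1:24611535-24616197. Of these copies, 5 were identical to their mitochondrial gene over the whole length of the copy and the least similar was 98.8% identical. The copy of mt-Nd3, a subunit of complex I, is named Gm28438 and differed from it by the single substitution T3C, counted from the first base of the gene. The first 30 bases of both are shown, with the differing base in capitals. The copy lies on the minus strand and is written along its own strand.

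mt-Nd3, chrM:9459-9488: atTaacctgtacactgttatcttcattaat
Gm28438, chr1:24613090-24613119: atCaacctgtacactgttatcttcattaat

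The reads were 50 bases long. Every one of the 635 windows of 50 bases in mt-Co2 also occurs in an annotated nuclear transcript, as do 734 of 735 in mt-Co3, 629 of 632 in mt-Atp6, 245 of 248 in mt-Nd4l and 293 of 299 in mt-Nd3. In the genes at the edges of the stretch the share was intermediate, with 765 of 1496 windows in mt-Co1 and 827 of 1329 in mt-Nd4. No window of mt-Rnr1, mt-Nd1, mt-Nd6, mt-Cytb or any of the 22 tRNAs was shared. mt-Atp8 was also at 0 without a shared window, as were the 4 tRNAs. These have no annotated copy, and all but mt-Ty lie inside the stretch. Only annotated transcripts were searched. The copies on chromosome 1 keep the order of the mitochondrial genes, and the sequence between them was not compared. mt-Atp8 and the tRNAs inside the stretch lie between genes that have these copies. How the authors treated reads that align to more than 1 place is not given in the sources used here, and the part of the nuclear copy in the zeros was not tested. The values of mt-Co2, mt-Co3, mt-Atp6, mt-Atp8, mt-Nd4l and mt-Nd3 are therefore uncertain. So are those of the tRNAs inside the stretch (mt-Ts1, mt-Td, mt-Tk, mt-Tg and mt-Tr). The levels of mt-Co1 and mt-Nd4 relative to other genes are uncertain too.

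**Figure D1:**
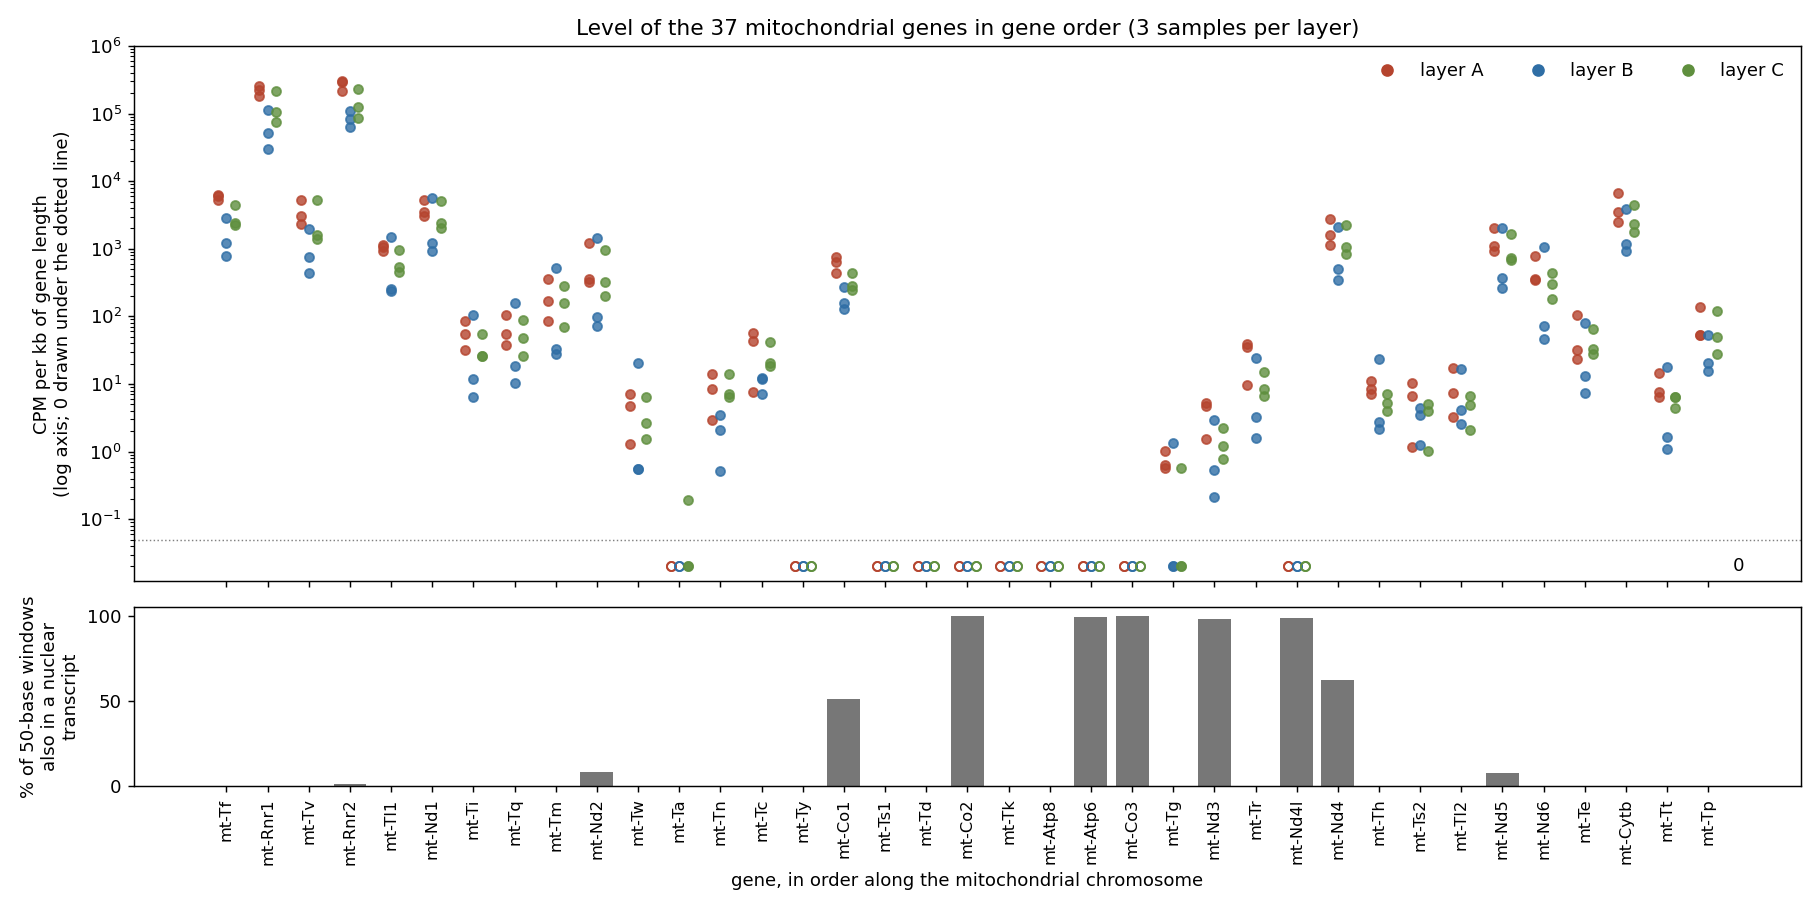
Upper panel, level of each of the 37 mitochondrial genes in gene order, in CPM per kb of gene length on a log axis. Each point is 1 of the 3 samples of layer A (red), B (blue) or C (green), and values of 0 are drawn below the dotted line, open where all samples of the layer are at 0. Lower panel, percent of the 50-base windows of each gene that also occur in an annotated nuclear transcript. A gap of zeros runs from mt-Ts1 to mt-Nd4l, interrupted by mt-Tg, mt-Nd3 and mt-Tr.

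Per kb of gene length, the rRNAs stood far above the other members. The median over the 9 samples was 125392 CPM per kb for mt-Rnr2, the large rRNA, and 112301 for mt-Rnr1, the small rRNA. Their order was not fixed, since the per-kb ratio of mt-Rnr1 to mt-Rnr2 was 0.473 in layer B replicate 1 and 1.06 in layer A replicate 3. Next came mt-Nd1 at 3059, mt-Tf at 2845, mt-Cytb at 2500 and mt-Tv at 1960 CPM per kb. mt-Nd4 (1136), mt-Nd5 (933) and mt-Tl1 (927) followed, and mt-Nd6 (349), mt-Nd2 (326) and mt-Co1 (283) were lower. Among these 12 genes the ranges of neighbours in the order overlapped across samples, except that the lowest rRNA value, 29784 for mt-Rnr1, lay above the highest value of any other member, 6768 for mt-Cytb. When counts were divided by the number of windows that no nuclear transcript shares, mt-Nd4 reached 3119 CPM per 1000 windows, close to mt-Nd1 at 3224, and mt-Co1 reached 598.

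To see how much of each library the mitochondrial RNAs took, the 3 classes were summed. The rRNAs took 70.2%, 65.8% and 55.3% of all counts in layer A replicates 1, 2 and 3, 12.8%, 18.2% and 28.1% in layer B, and 29.8%, 57.1% and 20.5% in layer C. Every layer A sample lay above every layer B sample, by a mean difference of 44.0 percentage points. Layer C overlapped both, because its replicate 2 lay within the layer A range and its replicate 3 within that of layer B. The exact two-sided permutation test gave p = 0.1 for A against B, the smallest that 3 samples against 3 allow, and p = 0.2 for each of the other pairs.

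The mRNAs took a far smaller part. Their share of all counts was 2.31%, 1.31% and 1.03% in layer A, 0.319%, 0.428% and 1.90% in layer B, and 0.851%, 1.79% and 0.712% in layer C. By this share of all counts, layer B replicate 3 stood above 2 of the 3 layer A samples. The layers overlapped (exact permutation p = 0.3 for A against B, 0.5 for A against C and 0.6 for B against C). The tRNAs took 0.0918%, 0.0617% and 0.0743% in layer A, 0.0107%, 0.0161% and 0.0512% in layer B, and 0.0329%, 0.0779% and 0.0305% in layer C. Here layer A lay above layer B in every sample (exact permutation p = 0.1), although the lowest layer A and the highest layer B sample were near each other, and layer C overlapped both.

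Since the rRNAs filled most of the layer A libraries, the mRNA share was also taken over the counts that remain without them. It was 7.76%, 3.83% and 2.30% in layer A, 0.366%, 0.524% and 2.65% in layer B, and 1.21%, 4.18% and 0.895% in layer C. The mean of layer A was 4.63% ± 2.82 (SD, n = 3), that of layer B 1.18% ± 1.28 and that of layer C 2.10% ± 1.81. Of the layer A samples, 2 exceeded every layer B sample and the remaining one lay below layer B replicate 3 (exact permutation p = 0.2 for A against B, 0.3 for A against C and 0.5 for B against C). The counts were deep enough that the 95% Wilson intervals of these shares spanned at most 0.0382 percentage points, so the spread between replicates, not counting error, set the precision. Among the 18 comparisons of 6 measures, the lowest Benjamini-Hochberg adjusted exact permutation p was 0.6.

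**Figure D2:**
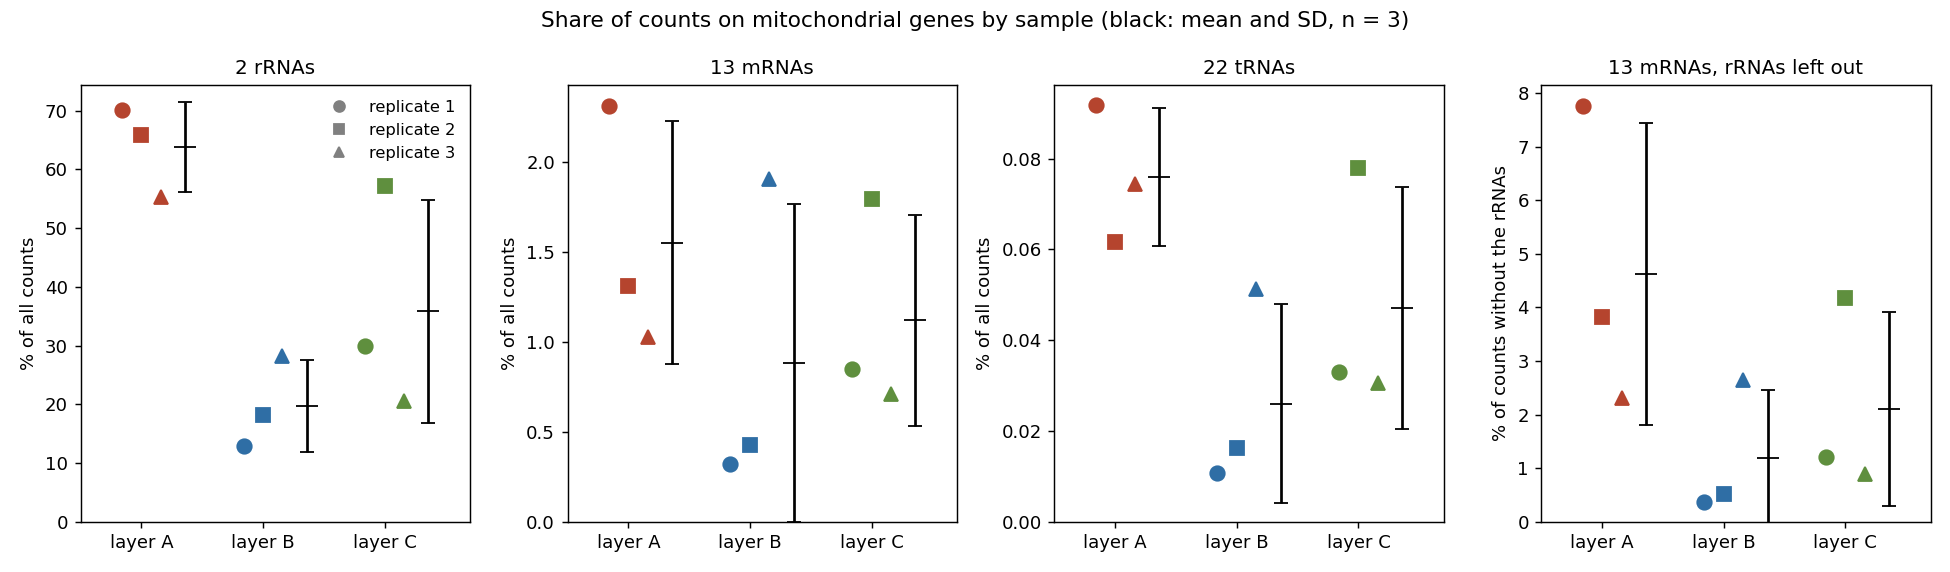
Share of counts on the 2 rRNAs, the 13 mRNAs and the 22 tRNAs in percent of all counts, and on the mRNAs in percent of the counts without the rRNAs. Symbols are the samples (circle, square and triangle for replicates 1, 2 and 3), and the black mark is the mean with its SD (n = 3), cut at 0. Layers A and B are separate for the rRNAs and the tRNAs and overlap for the mRNAs, where layer B replicate 3 stands at 1.90%.

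The rRNAs and mRNAs did not keep a fixed ratio. There were 30.3, 50.2 and 53.8 rRNA counts per mRNA count in layer A, 40.1, 42.5 and 14.8 in layer B, and 35.0, 31.8 and 28.8 in layer C. Layer B replicate 3 was the lowest of the 9, and the layers overlapped (exact permutation p = 0.5 for A against B, 0.3 for A against C and 1 for B against C). This ratio does not depend on the library total or on any nuclear RNA. The per-kb ratio of the small to the large rRNA was 0.867, 0.581 and 1.06 in layer A, 0.473, 0.622 and 1.02 in layer B, and 0.835, 0.919 and 0.874 in layer C, again with overlap (exact permutation p = 0.6, 0.8 and 0.4).

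Each member was then tested in a fit over 56416 transcripts with edgeR, after scaling to the bulk of the transcripts by the trimmed mean of M values (TMM). Of the 37 genes, 26 passed the filter of 10 counts in 3 samples and were tested, namely the 2 rRNAs, 8 mRNAs and 16 tRNAs. Between layers A and B, 8 of the 26 passed an adjusted p of 0.05, and all 8 were higher in layer A. Of all transcripts tested, 16.5% passed, and 10.7% passed as higher in layer A. The median log2 fold change of A over B was 1.88 over the 26 members and -0.12 over all transcripts.

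Both rRNAs passed. On the scale of normalised CPM, which divides by library totals corrected by TMM and so has no fixed sum, mt-Rnr2 stood at 986568, 756979 and 367543 in layer A, 61231, 83045 and 160368 in layer B, and 162367, 541319 and 87326 in layer C. mt-Rnr1 stood at 516606, 265631 and 235212 in layer A, 17492, 31191 and 98726 in layer B, and 81866, 300332 and 46053 in layer C. The lowest layer A sample exceeded the highest layer B sample for both genes. The log2 fold change of A over B was 2.79 (SE 0.619) for mt-Rnr2 and 2.79 (SE 0.703) for mt-Rnr1, with edgeR adjusted p of 0.0063 and 0.013.

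Of the 8 mRNAs tested, mt-Co1, the catalytic subunit of cytochrome c oxidase in complex IV, was the one that passed. Its normalised CPM was 2470, 1524 and 739 in layer A, 120.2, 155 and 380 in layer B, and 309, 1008 and 285 in layer C. Layers A and B did not overlap, and the log2 fold change was 2.85 (SE 0.579, edgeR adjusted p = 0.0038). Nuclear transcripts share 765 of its 1496 windows, so its level relative to other genes is uncertain. mt-Cytb, the cytochrome b of complex III, stood at 16581, 6305 and 3117 normalised CPM in layer A, 650.2, 856 and 4122 in layer B, and 2148, 7472 and 1302 in layer C. Its layer B replicate 3 lay above the lowest layer A sample, and its log2 fold change of 2.21 (SE 0.765) had an edgeR adjusted p of 0.061.

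In the complex I subunits, as in mt-Cytb, layer B replicate 3 lay inside the layer A range. mt-Nd1 stood at 10738, 5175 and 3190.1 normalised CPM in layer A, 544, 741 and 5025 in layer B, and 1868, 7171 and 1247 in layer C. mt-Nd2 stood at 2661, 522 and 398 in layer A, 45.9, 63.6 and 1398 in layer B, and 277, 1452 and 133 in layer C. In both genes replicates 1 and 2 of layer B lay below all other samples. The log2 fold changes of A over B in edgeR were 1.60 for mt-Nd1, 1.25 for mt-Nd2, 2.60 for mt-Nd3, 1.99 for mt-Nd4, 1.64 for mt-Nd5 and 1.30 for mt-Nd6, with adjusted p from 0.077 to 0.496. mt-Nd6 is the one mRNA encoded on the other strand, and it shares its bases with no counted mRNA except at the end of mt-Nd5. Because the libraries did not keep the strand, reads from mt-Nd6 and from precursor of the opposite strand cannot be told apart.

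Counts on a tRNA gene do not separate mature tRNA from uncut precursor, which also holds for the tRNA shares above. The tRNA counts were concentrated on mt-Tf, mt-Tv and mt-Tl1, whose sequences are given above. These took 86.0% to 96.2% of the tRNA counts of a sample, with the lowest share in layer B replicate 3. mt-Tf stood at 874, 559 and 467 normalised CPM in layer A, 32.2, 51.6 and 178 in layer B, and 132, 442 and 98.3 in layer C. It did not overlap between layers A and B or between A and C, and its log2 fold change of A over B was 2.86 (SE 0.633, edgeR adjusted p = 0.0063). The ratio of its per-kb level to that of mt-Rnr1, which starts just after it, ranged from 0.0207 to 0.03 over the 9 samples. The ratio of mt-Tv to mt-Rnr2 ranged from 0.0071 to 0.0224 and that of mt-Tl1 to mt-Rnr2 from 0.003 to 0.0136, with the highest value of the latter in layer B replicate 3. At 0.0136 that sample lay above the next one, which had 0.0064.

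mt-Tv also passed between layers A and B (log2 fold change 2.83, SE 0.811, edgeR adjusted p = 0.026), and its samples did not overlap. mt-Tl1 did not pass, with 1.58 (SE 0.735, adjusted p = 0.167). The remaining tRNAs that passed in edgeR were mt-Tc for cysteine (3.07, adjusted p = 0.018), mt-Tn for asparagine (3.04, 0.037) and mt-Tp for proline (2.59, 0.046). Their counts were low, with normalised CPM of 0.549 to 8.13 for mt-Tc and 0.224 to 1.54 for mt-Tn in layer A, and layer B replicate 3 overlapped layer A in both. mt-Tc, mt-Tn and mt-Tp are encoded on the minus strand, and the libraries did not keep the strand. As for mt-Nd6, their reads and those from precursor of the opposite strand cannot be told apart. Of the 16 tRNAs tested, 5 passed and the other 11 had log2 fold changes from 0.13 to 2.54. In normalised CPM, 6 of the 26 members had every layer A sample above every layer B sample (mt-Tf, mt-Rnr1, mt-Tv, mt-Rnr2, mt-Co1 and mt-Tp), a share to read against 17.2% of all transcripts.

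The number of members that passed between layers A and B turned on single libraries. The shares moved less. With any sample left out, A minus B stayed between 40.6 and 48.3 percentage points for the rRNAs and between 0.042 and 0.0625 for the tRNAs. Without layer B replicate 3, 25 of the 26 members passed in edgeR, all higher in layer A, when 20.4% of all transcripts passed and 13.1% as higher in layer A. The 25 comprised both rRNAs, all 8 mRNAs tested and 15 of the 16 tRNAs, with a median log2 fold change of 3.80 over the 26. mt-Nd2 moved from 1.25 to 4.50, mt-Nd6 from 1.30 to 4.63 and mt-Nd1 from 1.60 to 3.37, while mt-Rnr2 moved from 2.79 to 3.34. Without layer A replicate 1, in contrast, 3 members passed (mt-Rnr2, mt-Co1 and mt-Tf), when 7.26% of all transcripts passed as higher in layer A. Without layer B replicate 1 there were 4 (7.12% of all transcripts) and without layer B replicate 2 there were 5 (8.57%). mt-Rnr2, mt-Co1 and mt-Tf passed in all 18 alternative fits and mt-Rnr1 in 17, failing without layer A replicate 1.

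**Figure D3:**
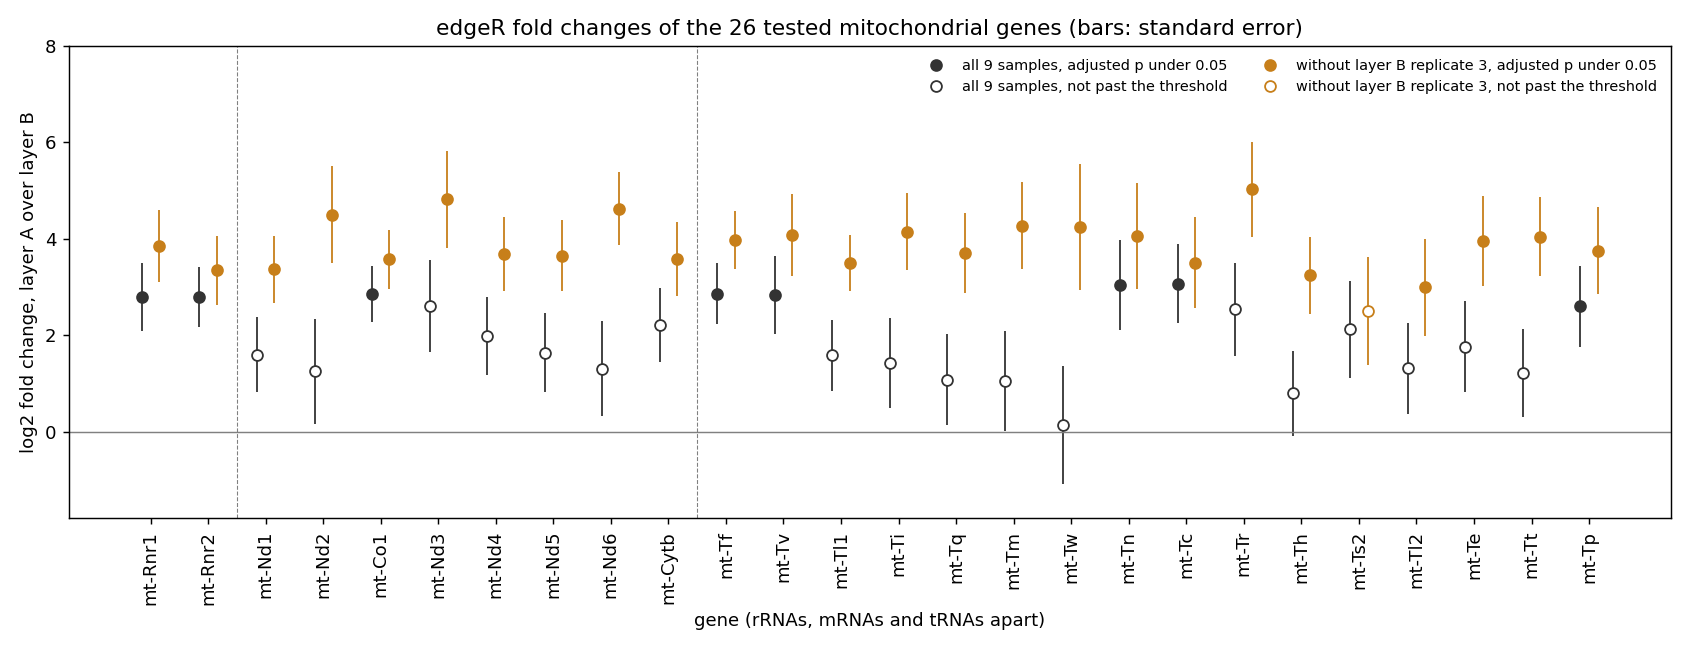
log2 fold change of layer A over layer B in edgeR for the 26 tested members, with rRNAs, mRNAs and tRNAs apart. Bars are the standard error, derived from the F statistic of the test. Black points use all 9 samples and orange points leave out layer B replicate 3, and filled points have an adjusted p under 0.05. With all samples 8 points are filled, and without that replicate 25 are.

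Layer B replicate 3 had the highest normalised CPM of its layer in 26 of the 26 members, where the share over all transcripts was not taken. It also stood apart in its nuclear RNA. The correlation of its nuclear log CPM across transcripts was 0.917 and 0.909 with replicates 1 and 2 of the same layer, which had 0.989 with each other. Those replicates had 0.944 to 0.974 with the layer C samples. Layer B replicate 3 had 0.938, 0.926 and 0.947 with them, higher than with its own layer. On the scale of nuclear CPM, which divides by the counts of nuclear transcripts alone, it had 261 on 3 markers of GABAergic neurons, against 84.6 and 78.5 in the other two replicates, 265 against 58.4 and 67.1 for 4 markers of oligodendrocytes, and 8446 against 4925 and 4042 for 5 general neuronal markers. It had 9.96 against 2.31 and 2.26 for 5 meningeal markers. It was the lowest of its layer for the sum of 4 glutamatergic markers, among them Camk2a, with 1613 against 2087 and 2334. That sum was 4810 to 7193 in layer A, where the general neuronal markers were lower. The part of these traits of layer B replicate 3 in the mitochondrial values was not tested.

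Between layers A and C, none of the 26 members passed in edgeR, where 11.3% of all transcripts did. At an unadjusted p under 0.05 there were 5 of the 26 members and 24.5% of all transcripts, and DESeq2 called 1, mt-Co1, beside 15.7% of all transcripts. The 26 fold changes in edgeR were all positive, with a median log2 of 1.24 and a range from 0.53 to 2.26, against -0.01 over all transcripts. In edgeR mt-Co1 had 1.56 (SE 0.553, adjusted p = 0.084) and mt-Rnr2 had 1.42 (SE 0.590, adjusted p = 0.148). In normalised CPM mt-Tf, mt-Th and mt-Tt had every layer A sample above every layer C sample, 3 of 26 against 17% of all transcripts. Layer C replicate 2 carried the highest layer C value of 26 of the 26 members, where the share over all transcripts was not taken. It had the lowest total of the 9 libraries (23104306 counts). Without it 3 members passed between A and C (mt-Rnr2, mt-Co1 and mt-Tf), beside 6.72% of all transcripts, with a median log2 fold change of 2.33 over the 26. Without layer B replicate 3, which enters this comparison through the shared estimate of the spread, 4 passed (mt-Nd3, mt-Co1, mt-Tf and mt-Tr), beside 17.5% of all transcripts. Without layer A replicate 1 the median fell to 0.37, with 20 of 25 fold changes positive and 0 members at an unadjusted p under 0.05 in edgeR, where 20.1% of all transcripts had one. The median without layer C replicate 3 was 0.84.

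Between layers B and C, none of the 26 members passed, and neither did any of the 56416 transcripts (0%). In edgeR 7 members and 4.11% of all transcripts had an unadjusted p under 0.05, and DESeq2 called 0 of them and 0.23% of all transcripts. The median log2 fold change of B over C was -0.55. Without layer B replicate 3 it was -2.62, with 0 members past the threshold (0.0305% of all transcripts) and 24 at an unadjusted p under 0.05 (9.55% of all transcripts), and all 26 were then lower in layer B. Without layer C replicate 2, in contrast, the median was 0.48, with 18 of 26 fold changes positive and 0 members at an unadjusted p under 0.05 (3.59% of all transcripts). The median was -0.15 without layer B replicate 1 and -0.22 without layer B replicate 2, and it was -0.98 without layer C replicate 1 and -1.01 without layer C replicate 3.

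Within the mRNAs the make-up of the counts was examined, since a change in the whole mitochondrial share cancels there. mt-Cytb and mt-Nd1 were the largest parts. mt-Cytb made up 33.5%, 31.0% and 27.8% of the mRNA counts in layer A, 33.1%, 31.8% and 23.5% in layer B, and 30.8%, 28.3% and 28.1% in layer C. mt-Nd1 made up 21.7%, 25.4% and 28.5% in layer A, 27.7%, 27.6% and 28.7% in layer B, and 26.8%, 27.1% and 26.9% in layer C. mt-Nd4 took 14.7% to 17.4%, and mt-Nd5 took 15.2% to 19.8%.

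The smaller parts varied more. mt-Nd2, a complex I subunit like mt-Nd1, made up 5.37%, 2.56% and 3.56% in layer A, 2.34%, 2.37% and 7.98% in layer B, and 3.98%, 5.49% and 2.87% in layer C. mt-Co1 made up 4.99%, 7.49% and 6.60% in layer A, 6.13%, 5.77% and 2.17% in layer B, and 4.43%, 3.81% and 6.14% in layer C. Layer B replicate 3 held both the highest share of mt-Nd2 and the lowest share of mt-Co1. It also held the highest share of mt-Nd6, at 2.93% against 0.742% and 0.876% in the other layer B samples and 1.10% to 2.18% in layers A and C.

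Per kb, mt-Nd2 stood at 0.0778 to 0.257 times the level of mt-Nd1, although nuclear copies share 81 of its 989 windows. mt-Nd6 stood at 0.172 to 0.520 times the level of mt-Nd5. Of 24 comparisons of the 8 counted mRNAs between layers, 2 did not overlap, mt-Nd1 and mt-Nd4 between layers B and C. The differences of B minus C were 1.05 percentage points for mt-Nd1 and -1.64 for mt-Nd4, with an exact permutation p of 0.1 for each and a lowest adjusted p of 0.8. Without layer B replicate 3 there were 9 comparisons without overlap, where fewer samples make separation more likely.

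**Figure D4:**
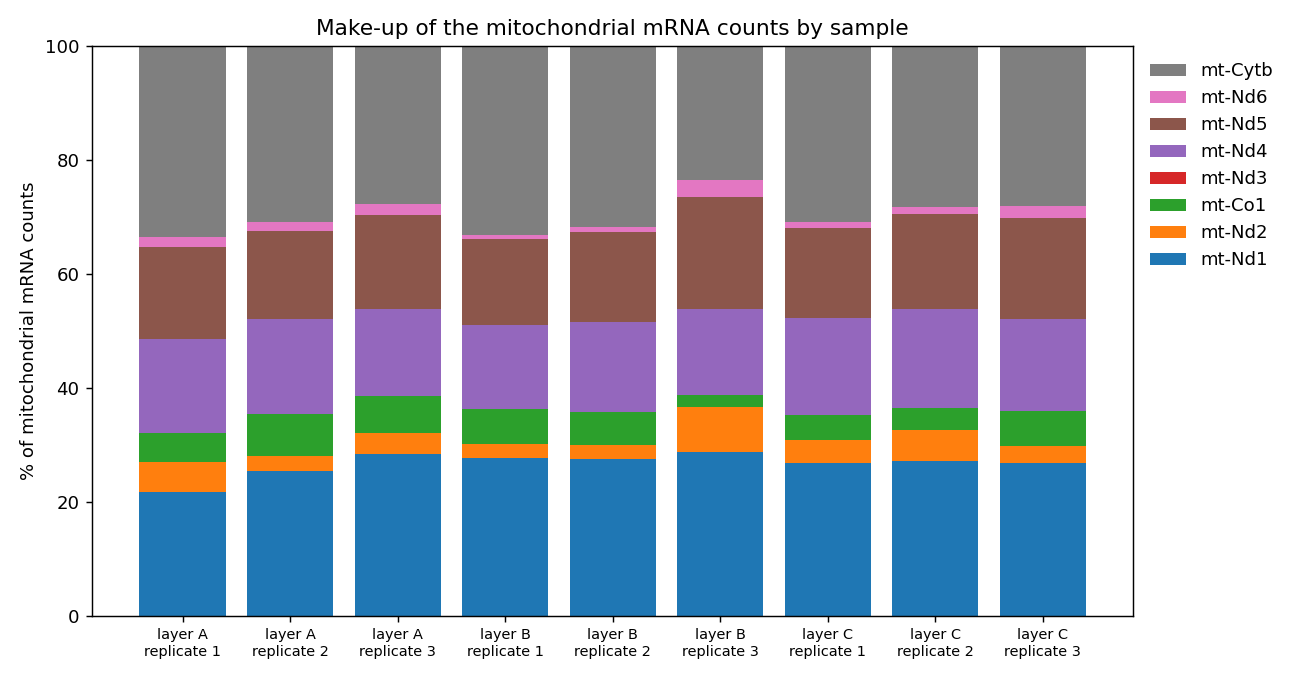
Make-up of the mitochondrial mRNA counts in each sample, in percent of the counts of the 13 mRNAs, of which 8 had counts (mt-Nd3 is too small to see). Layer B replicate 3 has the largest parts of mt-Nd2 (7.98%) and mt-Nd6 (2.93%) and the smallest parts of mt-Co1 (2.17%) and mt-Cytb (23.5%).

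The nuclear partners of these genes were examined in the same fit. Of 38 nuclear genes that act in mitochondrial replication, transcription, RNA processing, translation or biogenesis, 37 were tested. Between layers A and B, 1 passed in each direction, against 16.5% of all transcripts. Gabpa, a subunit of the transcription factor NRF-2 that acts on nuclear genes of the respiratory chain, was higher in layer A (log2 fold change 1.28, SE 0.333, edgeR adjusted p = 0.015). Tfb1m, the methyltransferase that modifies the small mitochondrial rRNA, was lower in layer A (-1.82, SE 0.550, edgeR adjusted p = 0.033). The call on Tfb1m was lost without layer B replicate 3, layer C replicate 1 or any of the layer A replicates, with only the 6 samples compared, and with 10 counts asked of every sample. That on Gabpa was lost without layer A replicate 1 and with library totals. Gabpa also passed between layers A and C (1.29, edgeR adjusted p = 0.022), a call that was lost without replicate 1 or 2 of either layer and with library totals.

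The other genes of the list did not pass in the edgeR fit of all 9 samples with TMM. Mgme1, a nuclease of mitochondrial DNA replication, had a log2 fold change of A over B of 1.38 (adjusted p = 0.060), Twnk, the replicative helicase, -1.11 (0.136), and Lrpprc, which stabilises mitochondrial mRNAs, -0.78 (0.118) in edgeR. Tfam, which packages and transcribes mitochondrial DNA, had -0.63 (0.392) and Polrmt, the mitochondrial RNA polymerase, -0.56 (0.482). Mgme1 did pass as higher in A than in B with DESeq2, with 10 counts asked of every sample and with counts summed by gene. It also passed without layer A replicate 3 or layer B replicate 3. With library totals Twnk, Lrpprc and Tfam passed as lower in layer A, where 26.8% of all transcripts passed as higher in layer B. Summed over the list, the nuclear CPM was 358, 328 and 360 in layer A, 288, 286 and 423 in layer B, and 296, 313 and 328 in layer C, with layer B replicate 3 the highest of the 9.

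Of 32 nuclear-encoded subunits of complexes I, III, IV and V, all were tested and none passed in any of the 3 comparisons in edgeR or DESeq2. Of all transcripts, 16.5% (A and B), 11.3% (A and C) and 0% (B and C) passed in edgeR. In DESeq2 these shares were 20.7%, 15.7% and 0.23%, and 29%, 24.5% and 4.11% had an unadjusted p under 0.05 in edgeR. At an unadjusted p under 0.05 there was 1 between layers A and B, Cox5a of complex IV (log2 fold change -1.41, edgeR adjusted p = 0.162), and 0 in each of the others. Ndufs7 of complex I followed with -1.12 (edgeR adjusted p = 0.191). The median log2 fold change of A over B was -0.46 for these nuclear subunits, beside 1.81 for the 8 mitochondrial mRNAs. They summed to 1608, 1533 and 1819 nuclear CPM in layer A, 1439.7, 1322 and 2708 in layer B, and 1810.2, 1291 and 2268 in layer C, so that layer B replicate 3 was the highest sample here too. Without it the median was 0.37, and Cox4i1 and Cox6c of complex IV passed as higher in layer A, beside 13.1% of all transcripts.

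Marker RNAs of several cell types differed between layers A and B. Of 43 marker genes, 31 passed between these layers in edgeR, beside 16.5% of all transcripts, and 25 were higher in layer A, beside 10.7% of all transcripts. The other 6 were lower in layer A, and 0 passed between layers B and C. The 6 astrocyte markers (Gfap, Aqp4, Aldh1l1, Slc1a3, Gja1 and Slc1a2) summed to between 9338 and 16755 nuclear CPM in layer A. The same sum lay between 1189.6 and 1562 in layer B and between 1988 and 2940.1 in layer C, and all 6 genes passed as higher in A than in B. This was also so for 4 of 4 endothelial, 4 of 4 pericyte or smooth muscle, 5 of 5 meningeal and 3 of 4 microglial markers, and for 0 of 4 oligodendrocyte markers. The meningeal markers summed to 109 to 259 nuclear CPM in layer A and to 2.26 to 9.96 in the other layers, and Acta2 of smooth muscle was at 0 in 1 layer C sample. The 5 neuronal markers (Rbfox3, Snap25, Syt1, Tubb3 and Stmn2) were detected in all 9 samples, and all 5 passed as lower in A than in B. Their sum lay between 1424 and 2588 in layer A, between 4042 and 8446 in layer B, and between 4599 and 5656 in layer C. Among 4 glutamatergic markers Camk2a, whose mRNA is carried into dendrites, was higher and Tbr1 lower in layer A, and of 3 GABAergic markers Gad2 was higher. The part of these cell types in the mitochondrial shares was not tested.

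The fold changes depended on the scaling. With library totals alone the median of all transcripts was -1.19 on the log2 scale between layers A and B, against -0.12 with TMM, and the members' median was 0.78. The 2 rRNAs, mt-Co1, mt-Tf and mt-Tv still passed as higher in layer A, beside 3.25% of all transcripts, and 24 of 26 fold changes were positive, with mt-Tw and mt-Th below 0. With TMM and totals taken from nuclear transcripts, 8 members passed, all higher in layer A, beside 11.2% of all transcripts.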

How the data were processed

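RNA of laser-captured piriform cortex was amplified by the authors with the Ovation system, made into strand non-specific libraries, sequenced as 50-base read pairs and aligned to mm10 with Bowtie. The authors deposited raw counts per Ensembl transcript for each of the 9 samples, without normalization, and the submitters' processing notes also name HTSeq 0.5.3 and bcl2fastq 1.8.4. The treatment of reads with several alignments is not given in the sources used here. The reads carry no molecular identifiers, and the intervals and floors given cover only the error of counting. Precision was lowest for tRNAs other than mt-Tf, mt-Tv and mt-Tl1, which had few counts.

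Transcripts were joined to the GENCODE M21 annotation of GRCm38, which holds 82779 of the 95533 identifiers, and the others stayed in the totals and the fit. Nuclear copies were found as annotated transcripts outside the mitochondrial chromosome that share a 50-base window with a member on either strand. Shares were compared with exact two-sided permutation tests of the difference in means (Python 3.11.15, scipy 1.17.1). Transcripts reaching 10 counts in 3 or more samples were tested with edgeR 4.0.16 in R 4.3.3 (quasi-likelihood, TMM, all 9 samples in a single fit, no covariate, Benjamini-Hochberg over all transcripts tested). The method was tested on simulated data. DESeq2 1.42.0 was an alternative, as were other scalings, filters and units, only the 6 samples compared, the replicate number as a block, and each sample left out.

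Samples were grouped by the letters in the labels. No pairing by replicate number was seen in the correlations of deviations from the layer means. These were -0.19 to 0.24 for same-numbered samples and -0.37 to 0.39 for the others. With 3 samples per layer this cannot exclude that same-numbered samples share an animal. No 2 samples of the same layer agreed within sampling noise. All rRNAs and mRNAs are named, with the 3 tRNAs of highest mean count, the tRNAs past the threshold up to 5 per direction, and up to 4 genes per direction of each nuclear list by smallest p. Other names (mt-Th, mt-Tt, mt-Tr, mt-Tw, Tfam, Polrmt, Cox4i1 and Cox6c) were chosen after their values were seen or for their role. The members, the gene lists and the tests were chosen with earlier results of these data known.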

Additional observations from a re-analysis of the deposited data

Results flagged for a closer look

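Counts appeared on annotated nuclear copies of mitochondrial genes, which the comparisons did not use. Gm13340, a copy of mt-Co1 on chromosome 2, had up to 17 counts in a sample. Gm13341, a copy of mt-Co2 on the same chromosome, had up to 7, although mt-Co2 itself was at 0 in all 9 samples. Gm11407, a copy of mt-Nd5 on chromosome 4, had up to 4. These counts lay above the 3 that a count of 0 allows. Whether they came from nuclear or mitochondrial RNA was not tested.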

How the results depend on the processing

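With a sample left out, the mRNA share of all counts, B minus C, ranged from -0.745 to 0.102 percentage points (0.0473 without layer B replicate 1, 0.102 without layer C replicate 2), and that without rRNAs from -1.65 to 0.125 (without layer C replicate 2). The log2 rRNA to mRNA ratio, B minus C, ranged from -0.38 to 0.38 (without layer B replicate 3), and the log2 ratio of mt-Rnr1 to mt-Rnr2, A minus C, from -0.30 to 0.13 (without layer A replicate 2). The log2 fold change of mt-Nd2 ranged from -0.12 to 4.50 for A over B and from -0.43 to 2.54 for A over C, and that of mt-Tp from -0.12 to 2.33 for A over C, each lowest without layer A replicate 1. With library totals alone that of mt-Tn was -0.13 for A over C.

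Members called between layers A and B were all higher in layer A. The shares of all transcripts are given in either direction and then as higher in layer A. The members numbered 5 with library totals (30.1% and 3.25%), 7 with DESeq2 (20.7% and 12.9%) and 12 without a filter (13.6% and 8.74%). They numbered 4 with the replicate block (16.3% and 10.5%), and 3 to 25 with a sample left out (9.92% to 20.4%, and 7.12% to 13.1%). Between A and C, with shares from here on in either direction unless stated, members numbered 1 with DESeq2 (15.7%) and 2 without a filter (9.06%). They numbered 3 with only the 6 samples compared (15.3%), and 0 to 4 with a sample left out (2.45% to 17.5%). Nuclear genes of mitochondrial gene expression called between A and B numbered 12 with library totals, all lower in layer A. Of all transcripts 30.1% were called there, and 26.8% as higher in layer B. The genes numbered 1 with only 6 samples (14%), and 0 to 2 with a sample left out (9.92% to 20.4%). Between A and C they numbered 0 with library totals (7.57%), and 0 to 1 with a sample left out (2.45% to 17.5%). They numbered 2 with DESeq2 (15.7%), with 10 counts asked of every sample (15.4%) or with counts summed by gene (16% of genes). Nuclear respiratory chain genes called with library totals numbered 10 between A and B (30.1%) and 1 between A and C (7.57%), all lower in layer A. Between A and B they numbered 0 to 2 with a sample left out (9.92% to 20.4%). Comparisons of the mRNA make-up without overlap numbered 2 to 9 with a sample left out (9 without layer B replicate 3), and 0 without mRNAs that overlap another.

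Whether the replicate numbers pair the samples is not known. With the replicate block the rRNA share, A minus B, was 44.0 percentage points (exact sign-flip p = 0.25, the smallest that 3 numbers allow). The causes of these changes were not tested. With 10 counts asked of every sample mt-Nd3 and mt-Tn were not tested.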

Other observations

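Among the nuclear long noncoding RNAs fixed as a marker list (Malat1, Neat1, Meg3 and Snhg11), the sum was 7063, 3991 and 6367 nuclear CPM in layer A. It was 3151, 5837 and 2613 in layer B, and 2549, 10157 and 1806 in layer C, so that layer C replicate 2, which had the highest mitochondrial values of its layer, had the highest sum of the 9 samples. In layer B the sample with the highest mitochondrial values, replicate 3, had the lowest sum.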
